A study of Aedes aegypti with 6 samples.

Results

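Thioester-containing proteins and the related macroglobulin complement-like factors of the mosquito Aedes aegypti were followed through 6 gene identifiers, AAEL000087, AAEL001794, AAEL001802, AAEL008607, AAEL012267 and AAEL014755, which were listed by identifier, with no measured value in the rule. Of the 6, 4 had a row among the 19804 identifiers of the gene tables, 3 had a count in at least 1 library and 2, AAEL008607 and AAEL012267, had counts in all 6 libraries. AAEL001802 and AAEL014755 had no row under these identifiers and were not analysed here. None of the 19623 genes of the RefSeq table of assembly AaegL5.0 carried an AAEL identifier, so neither the family membership of the genes nor which of them is the macroglobulin complement-related factor could be checked against these files.

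Thioester-containing proteins are large secreted proteins of the insect haemolymph that resemble vertebrate complement factors and the alpha-2-macroglobulin protease inhibitors. Many of them carry a reactive thioester bond, through which they attach to the surface of a microbe and mark it for engulfment, lysis or melanization. In Aedes aegypti the macroglobulin complement-related factor is known for binding dengue virus together with a scavenger receptor, and in Anopheles gambiae a family member is known for the killing of malaria parasites in the midgut.

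RNA came from whole bodies of larvae and of adults collected at 3 places in Eastern India, numbered here as locations 1, 2 and 3 for the labelled sites K1, K3 and C. Each library was made from a pool of 10 mosquitoes, with 1 library per stage and location, hence 3 larval and 3 adult libraries. No genotype, strain or treatment was given, nor the sex, age or feeding state of the animals. Since the pools of a stage come from different places, p-values of the stage test measure the spread between these pools. For each gene, edgeR's estimate of that spread also borrows from all tested genes. In whole-body pools, fewer cells of a type and less RNA per cell cannot be told apart. Reads counted for a single gene numbered 12049243 to 18328454 in larvae and 3271618 to 10450701 in adults, and reads that aligned to several places, which count for no gene, made up 11.5 to 16.2% of the larval and 36.0 to 62.2% of the adult reads. Unaligned reads went the other way, at 55.4 to 58.7% in larvae and 22.5 to 44.4% in adults. Any part of these differences in the results below was not tested.

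AAEL008607 was detected at every location and at both stages, and its level did not separate larvae from adults. Larvae gave 474, 142 and 241 counts at locations 1, 2 and 3, which are 34.5, 11.8 and 13.1 counts per 1000000 gene counts (CPM). Adults gave 115, 66 and 30 counts at the same places, or 11.0, 20.2 and 6.88 CPM. The larvae of location 1 were highest and the adults of location 3 lowest, and the stages overlapped, because the adults of location 2 lay above the larvae of locations 2 and 3. In order of level, the larvae of location 1 came first, followed by the adults of location 2, the larvae of location 3, the larvae of location 2, the adults of location 1 and the adults of location 3. From the larvae of location 3 (exact Poisson 95% interval 11.5 to 14.9 CPM) through the larvae of location 2 (9.93 to 13.9) and the adults of location 1 (9.08 to 13.2) to the adults of location 3 (4.64 to 9.82), neighbours in this order had overlapping counting intervals.

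AAEL012267 was lower in count and more variable from library to library. Larvae gave 17, 62 and 235 counts at locations 1, 2 and 3, equal to 1.24, 5.15 and 12.8 CPM. Adults gave 34, 15 and 4 counts, equal to 3.25, 4.58 and 0.917 CPM. The larvae of location 3 stood above the other libraries, and the adults of location 3 and the larvae of location 1 were the lowest, so that the stages again overlapped. The highest level was 14.0 times the lowest, against 5.01 times for AAEL008607. Among the 2425 tested genes with counts in all 6 libraries, the median of this ratio was 5.74. It was smaller than that of AAEL012267 in 80.4% of them and smaller than that of AAEL008607 in 43.7%. In order of level after the larvae of location 3, the larvae of location 2 (3.95 to 6.60 CPM), the adults of location 2 (2.57 to 7.56) and the adults of location 1 (2.25 to 4.55) overlapped in their counting intervals, as did the larvae of location 1 (0.720 to 1.98) and the adults of location 3 (0.250 to 2.35).

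**Figure D1:**
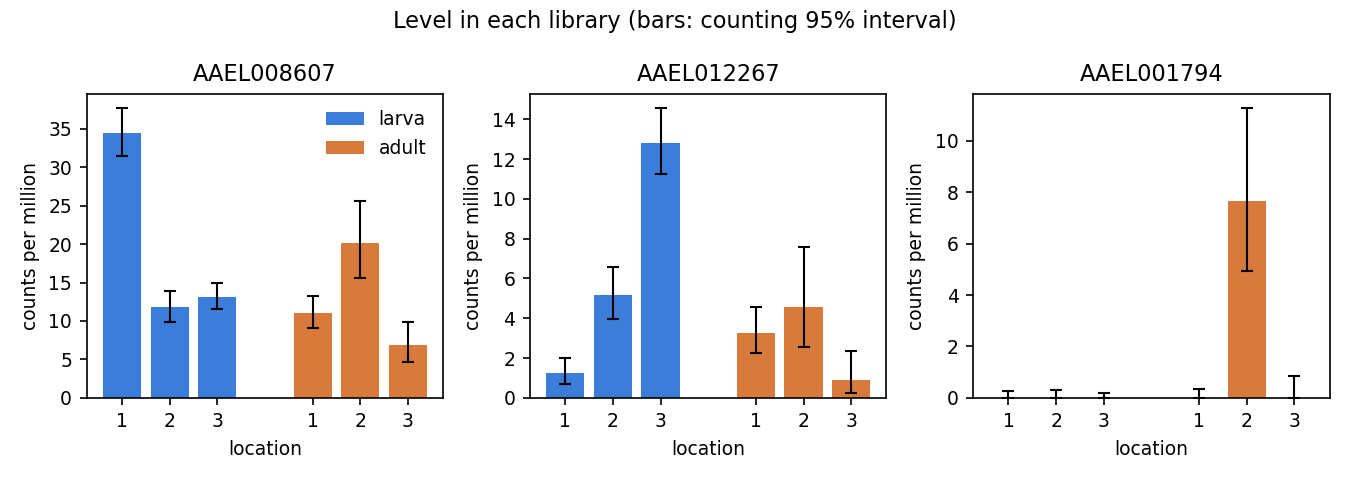
Counts per 1000000 gene counts (y axis) of the 3 members with any count in each library, by location (x axis) and stage (colour), each panel with its own scale; error bars are exact Poisson 95% intervals of the count and cover counting error only. AAEL008607 peaks in the larvae of location 1 at 34.5 CPM, AAEL012267 in the larvae of location 3 at 12.8 CPM, and AAEL001794 appears only in the adults of location 2 at 7.64 CPM.

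The remaining members of the gene tables gave little or no signal. AAEL001794 had 25 counts in the adults of location 2, or 7.64 CPM (exact Poisson 95% interval 4.95 to 11.3), and 0 in each of the other 5 libraries, where 3 counts, taken as the limit that a count of 0 allows, were 0.164 to 0.688 CPM. The library with the signal was the one with the fewest gene counts. Of 1481 identifiers counted in exactly 1 library, 39 were counted in that library, and 4 of these, AAEL001794 included, had at least 25 counts. AAEL000087 had 0 counts in all 6 libraries, as did 10912 identifiers, 55.1% of the total. At the depth of these libraries the limit of 3 counts is 0.164 CPM in the deepest library and 0.917 CPM in the shallowest. The upper ends of the exact Poisson 95% interval of AAEL000087 are higher there, at 0.201 and 1.13 CPM. AAEL000087 was thus not detectable here rather than shown to be absent.

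Whether the family changes between the aquatic larva and the flying adult was asked by comparing the 3 larval with the 3 adult libraries, and neither measured member passed the test. The mean level of AAEL008607 was 19.8 ± 12.7 CPM among larvae and 12.7 ± 6.80 CPM among adults (SD, n = 3 each). For AAEL012267 the means were 6.40 ± 5.89 CPM among larvae and 2.92 ± 1.86 CPM among adults (SD, n = 3 each). Both larval means were the higher ones, by 1.56 and 2.19 times, and both differences were within the spread between libraries. In edgeR's quasi-likelihood test with Benjamini-Hochberg adjustment over 5030 genes, the log2 fold change of adults over larvae was -0.54 for AAEL008607 (SE 0.66, 95% interval -2.04 to 0.95, adjusted p = 0.717). For AAEL012267 it was -1.10 (SE 1.18, 95% interval -3.76 to 1.56, adjusted p = 0.673). The intervals leave room for a change in either direction, so the test does not show that larvae and adults are alike.

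Of the 2 members tested, 0 were called between the stages, while 9.84% of all tested genes were called, 3.14% as higher in adults and 6.70% as higher in larvae. With 2 members, a count of 0 is near that background. DESeq2's Wald test called 0 of 2 members, beside 972 of the 5030 tested genes. In edgeR's test 0 of 2 had an unadjusted p under 0.05, beside 1182 of the 5030. Without the low-count filter edgeR called 0 of 3 members, beside 811 of 8892 genes. Of the 3, 1 had an unadjusted p under 0.05, beside 1530 of the 8892. It was AAEL001794 (edgeR unadjusted p = 0.0196, adjusted p = 0.153), from counts in 1 adult library. The median log2 fold change of the 5030 genes was -0.41, so a lower adult value was common. In size, 25.2% of the tested genes had a smaller fitted change than AAEL008607 and 46.8% a smaller one than AAEL012267, against a median size of 1.19 on the log2 scale. AAEL001794 and AAEL000087 did not pass the low-count filter and AAEL001802 and AAEL014755 had no row.

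**Figure D2:**
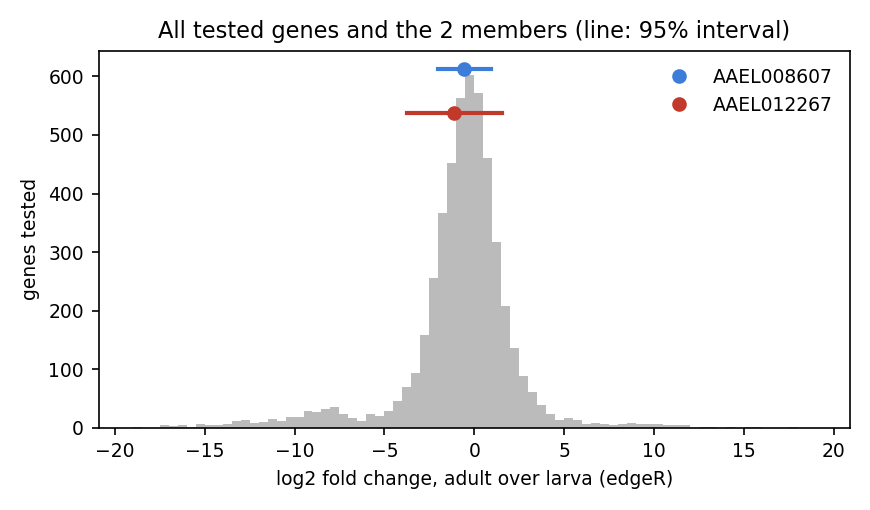
Number of tested genes (y axis) by the edgeR log2 fold change of adults over larvae (x axis, bins of 0.5), with the fitted value (point) and 95% interval (line) of AAEL008607 and AAEL012267 drawn above; the height of the lines has no meaning. Both points, at -0.54 and -1.10, lie in the body of the distribution and both intervals include 0.

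The stage difference did not go one way at the 3 locations. For AAEL008607 the larval level was 3.13 times the adult one at location 1 (exact 95% interval of the ratio 2.55 to 3.87, counting error only) and 1.91 times at location 3 (1.304 to 2.89). At location 2 the adult level was instead 1.71 times the larval one (1.26 to 2.31). For AAEL012267 the adult level was 2.63 times the larval one at location 1 (1.43 to 5.03) and 0.891 times at location 2 (0.471 to 1.58). The 17 larval counts at location 1 all lay on a single strand, as did the 15 adult counts at location 2 on the other. Both intervals may thus be too narrow. At location 3 the larval level was 14.0 times the adult one (5.39 to 51.7), from 235 counts against 4. These directions were the same with TMM and with DESeq2 size factors in place of library totals. However, the excess of AAEL008607 in the adults of location 2 came down to 1.20 with TMM. That is below the interval of 1.26 to 2.31 given for library totals, and no interval was computed with TMM. With 1 pool per stage and location the difference between locations in this ratio was not tested. Mixed directions by library totals were common: of the 2425 tested genes counted in all 6 libraries, 52.8% did not keep 1 direction at the 3 locations. At location 2, 57.6% of them were higher in adults, against 38.3% and 37.4% at locations 1 and 3. The TMM factors were 0.823 in larvae and 1.17 in adults at location 2. They ran the other way at location 1 (1.20 and 0.862) and at location 3 (1.12 and 0.896). These shares were not computed with TMM, so how far they depend on scaling was not tested.

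**Figure D3:**
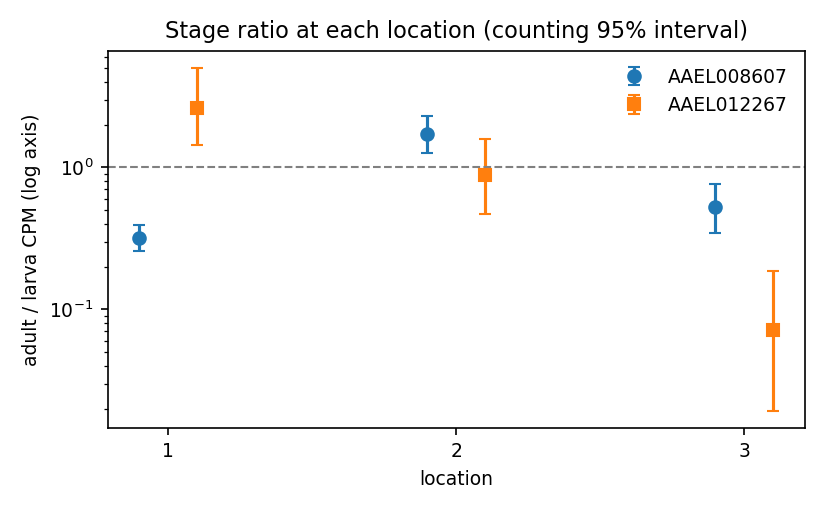
Ratio of adult to larval CPM (y axis, log axis) at each location (x axis) for AAEL008607 (circles) and AAEL012267 (squares), with exact 95% intervals that cover counting error only; the dashed line marks equal levels. AAEL008607 lies above 1 at location 2 alone, at 1.71, and AAEL012267 at location 1 alone, at 2.63. The 2.63 rests on 17 larval counts, all on a single strand, so its interval may be too narrow.

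Differences between the collection places were tested with stage as a covariate, and 0 of the 2 members were called, beside 0.0795% of the tested genes (4 of 5030). The adjusted p of edgeR's quasi-likelihood F test over the 3 locations was 1.00 for both members, and the unadjusted p of the same edgeR test was 0.601 for AAEL008607 and 0.914 for AAEL012267. DESeq2's likelihood ratio test called 0 of 2, beside 2 of the 5030 tested genes. The fit has 2 residual degrees of freedom and no second pool of any stage and location. The gene's own part of the error term is thus the disagreement of larvae and adults about the location differences. edgeR weighs that part with a trend over all tested genes, which carries 15.9 prior degrees of freedom. Within larvae alone AAEL008607 spanned a factor of 2.92 and AAEL012267 a factor of 10.4, and within adults 2.93 and 4.998.

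The levels of the 2 measured members showed no clear relation over the 6 libraries. AAEL008607 was highest in the larvae of location 1, where AAEL012267 was near its lowest. Gene length, which the tables do not give, cancels when the ratio of their reads is followed across libraries. AAEL008607 had 27.9 reads per read of AAEL012267 in the larvae of location 1, 2.29 at location 2 and 1.03 at location 3, and 3.38, 4.40 and 7.50 in the adults in the same order. The ratio was thus widest apart among the larval pools. It rests on 17 counts of AAEL012267 in the larvae of location 1 and on 4 in the adults of location 3. Over the 6 libraries, which include both stages, Pearson's r of their log2(CPM + 1) was -0.04 and Spearman's rho 0.26. Of the tested genes, 39.0% had a lower r with AAEL008607, and 6 libraries leave room for a relation in either direction. The tested genes whose log2(CPM + 1) followed that of AAEL008607 most closely over the 6 libraries were AAEL012237 and AAEL012272, both with r of 0.988. They were picked as the highest among 5030 tested genes, so an r of this size does not by itself show co-expression.

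Some counts of AAEL012267 lay on a single strand. Forward and reverse name here the single-strand columns of the gene tables in their order, not the strands of the genome. In the larvae of location 1 all 17 counts of AAEL012267 lay on the reverse strand, and in the adults of location 2 all 15 lay on the forward strand. The larvae of location 2 had 29 forward against 33 reverse counts of this gene, and those of location 3 had 117 against 118. Counts confined to 1 strand were common among genes of similar count in these 2 libraries. In the larvae of location 1, 81.7% of the 388 genes with counts within a factor of 1.3 had reads on 1 strand only. In the adults of location 2 the share was 71.8% of 525. At 15 or 17 counts, independent fragments from either strand alike would rarely all fall on 1 strand. All counting intervals given here, not only those of AAEL012267 in these 2 libraries, take every count as an independent fragment, which was not tested. Among 309 genes near the 474 counts of AAEL008607 in the larvae of location 1, forward share quartiles were 42.8 and 60.2%. Independent fragments read from either strand alike would vary less in strand share, so the counting intervals may be too narrow. The 25 counts of AAEL001794 were divided 13 to 12.

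AAEL008607 had reads on both strands in every library, with a forward lean in 5 of the 6. Each library as a whole also held more forward than reverse counts, such as 10112768 against 8311998 in the larvae of location 3. Its forward share was 47.7%, 72.5% and 78.0% among larvae, by location number, and 59.1%, 69.7% and 63.3% among adults. For genes of similar count in the larvae of location 3 the quartiles of the forward share ran from 42.6 to 59.5%, and in the larvae of location 2 from 46.3 to 57.1%, so AAEL008607 lay above both ranges. In the adults of locations 2 and 3 it also lay above the upper quartiles, 63.8 and 61.5%. Both libraries of location 1 had it within the quartiles, 42.8 to 60.2% in larvae and 40.4 to 60.1% in adults. With both strands counted together, reads over more than 1 annotated gene are ambiguous, 0.072 to 0.533% of a library, and count for no gene. Reads of an unannotated transcript on the other strand cannot be told apart from its own. With the forward column alone the stage log2 fold change of AAEL012267 was -0.34 (edgeR adjusted p = 0.942) and with the reverse column -2.64 (edgeR adjusted p = 0.370), and that of AAEL008607 was -0.50 and -0.79.

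**Figure D4:**
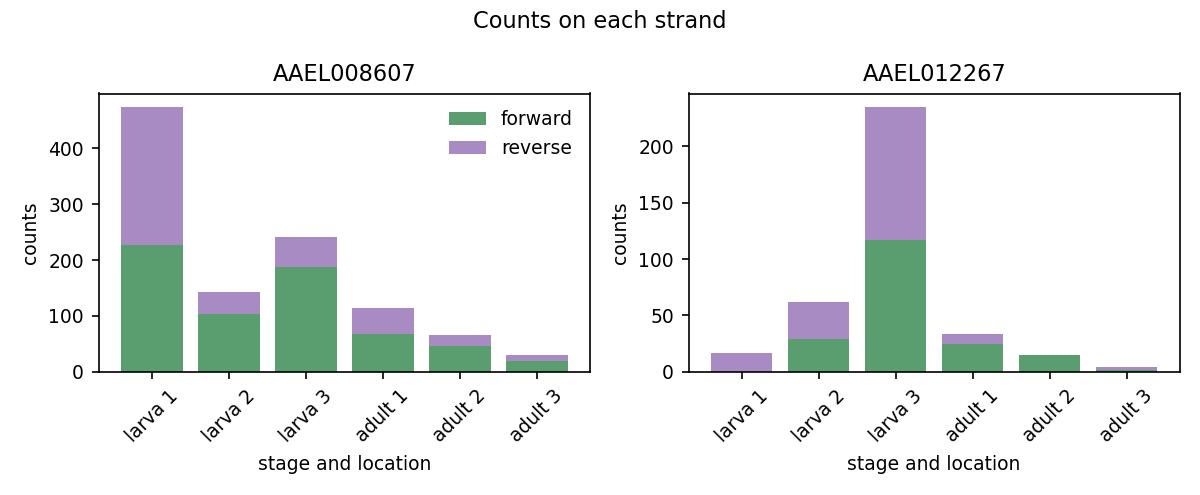
Counts (y axis) on the forward (green) and reverse (purple) strand for AAEL008607 and AAEL012267 in each library (x axis, stage and location), stacked, each panel with its own scale. AAEL012267 shows 1 strand only in the larvae of location 1 (17 reverse counts) and the adults of location 2 (15 forward counts).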

How the data were processed

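The deposited gene tables hold counts per gene, not normalized, in 1 column for the strands combined and 1 for each strand, below 4 summary rows. The submitters' processing notes name STAR, fastp, cutadapt, FastQC and edgeR without versions, and no source used here gives a build or annotation. The 4 rows, which hold the reads not counted for a single gene (69.3 to 92.3% of a library), were left out of totals and tests. CPM is counts per 1000000 gene counts. The quasi-likelihood test of edgeR 4.0.16 under R 4.3.3 was used, with filterByExpr by stage, TMM scaling and Benjamini-Hochberg adjustment at 0.05. It was run on simulated negative binomial counts as a check, drawn independently for each gene and library, which carry no strand. The SE is the size of the log2 fold change over the square root of F. DESeq2 1.42.0 was an alternative. Intervals at 95% are exact Poisson or binomial (Python 3.11.15, scipy 1.17.1) and, like the floor of 3 counts, cover counting error only. These counting intervals take every count as an independent fragment, so they may be too narrow.

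The members were listed by identifier, with no measured value in the rule, but they and the lists were chosen with earlier results of these data known. The rule for named genes was all 6 members and the 2 tested genes most correlated with the member of highest mean CPM. The planned lists of RefSeq partner genes had no members, because the reference table gives no gene descriptions, so junction tables were not used. The strand comparison with genes of similar count was added after the values were seen. Other alternatives were DESeq2 size factors, library totals, no low-count filter, either strand column, leaving out each library, and a block for location.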

Additional observations from a re-analysis of the deposited data

Results flagged for a closer look

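AAEL008607 was higher in adults than in larvae at location 2, by a ratio of 1.71, and lower in adults at locations 1 and 3, at 0.319 and 0.523. With TMM in place of library totals its ratio at location 2 was 1.20. AAEL012267 was higher in adults at location 1, by a ratio of 2.63, and lower in adults at location 3, at 0.0716, with 0.891 at location 2. The 2.63 rests on 17 larval counts, all on a single strand. Both genes are listed because locations went in opposite directions under the same comparison by library totals. So did 52.8% of the 2425 tested genes counted in all 6 libraries, so the 2 genes are not set apart by it at that scaling. With 1 pool per stage and location these differences between locations were not tested.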

How the results depend on the processing

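In every alternative run, 0 members were called between stages or locations, and neither stage log2 fold change changed sign. Over 14 alternatives that of AAEL008607 ran from -0.79 to -0.07 (adjusted p 0.567 to 0.985) and that of AAEL012267 from -2.64 to -0.32 (0.360 to 0.970). Over the 6 fits that left out 1 library they ran from -0.73 to -0.07 and from -1.61 to -0.32. AAEL008607 came nearest 0 without larva replicate 1 and AAEL012267 without larva replicate 3. Without the larvae of location 1 and the adults of location 2 together, chosen after seeing the data, they were -0.28 and -1.75 (edgeR adjusted p = 0.863 and 0.360). Deviations of same-numbered libraries from their stage means correlated at -0.041, 0.012 and -0.0021, so no pairing by location number was seen. With 1 pool per stage and location, these correlations cannot exclude a pairing. With location number as a replicate block the values were -0.51 and -0.71 (edgeR adjusted p = 0.824 and 0.902), and genes called were 177 higher in adults and 360 higher in larvae. AAEL001794, tested only without the low-count filter, had an adjusted p of 0.153 in the stage test. The adjusted p of the location tests stayed at 0.940 or above.

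The background counts moved more. Against 158 genes higher in adults and 337 higher in larvae, DESeq2's test gave 353 and 619 and no low-count filter 294 and 517. Leaving out 1 library gave 75 to 127 and 201 to 231, and leaving out the 2 libraries together gave 27 and 55. Against 4 genes called between locations, library totals gave 11, DESeq2 2, no filter 67, the forward column 0 (92 at an unadjusted p under 0.05), the reverse column 13 and leaving out 1 library 0 to 52. The cause was not tested. In the stage ratios at single locations, TMM and DESeq2 size factors moved AAEL008607 to 0.444 and 0.441 at location 1, and TMM to 1.20 at location 2. The planned test of RefSeq genes by junction reads was not run, because its lists had no members. Depth limits AAEL000087, with 0 counts in all 6 libraries, AAEL001794, with 0 in 5 of the 6, and AAEL012267, with 4 counts in the adults of location 3.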
